A study of Mus musculus with 4 samples.

Results

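Gene expression in cardiac endothelial cells was compared between the sample that was furthest from the untouched state by design, a Smad3-knockout animal given doxorubicin, and the sample that carried neither change, a wild-type animal given saline. These are 2 of the 4 libraries measured, and 1 library stood for each group. The comparison covered the 12325 genes, of 45882 gene IDs in the table, whose mean over the 4 libraries was at least 1 FPKM (fragments per kilobase of transcript per 1000000 mapped fragments, which scales a level by transcript length and by library size). The 2 libraries that differ from an end by a single factor, wild type with doxorubicin and Smad3 knockout with saline, were placed on the scale between the ends.

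All 4 libraries came from male mice, 20 weeks old by the labels. The knockout carried the 129-Smad3tm1Par/J allele, a deletion present in every cell of the body and not only in the endothelium, and the strain of the wild-type mice is not given in the sources used here. Smad3 KO Dox and WT Dox mice received 4 weekly injections of 5 mg/kg doxorubicin into the tail vein from 7 weeks of age, and Smad3 KO saline and WT saline mice received saline on the same schedule. Cells were taken 9 weeks after the last injection by digesting the perfused heart and selecting CD31-bearing cells on magnetic columns in successive rounds. The sources do not say how many hearts went into each library. The title and the genotype and treatment tags gave the same group for both ends. For the 2 intermediate libraries the title and the genotype tag disagreed, and their names here follow the titles. A general treatment field names doxorubicin for every sample and was set aside for the treatment tags.

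Smad3 is one of the receptor-activated Smads. After TGF-β binds its receptors, the type I receptor phosphorylates Smad2 and Smad3, which join Smad4, enter the nucleus and change the transcription of genes for matrix, growth arrest and feedback inhibitors such as Smad7. Doxorubicin is an anthracycline that poisons topoisomerase II and damages the heart, in part long after treatment has ended, and endothelial cells line the vessels that carry it there.

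Because each end had 1 library, differences are given without a test, and a gene is said to have passed when its log2(FPKM + 0.5) value differed by at least 1 between the ends. This scale understates the change of genes with low levels. Of the 12325 genes, 1961 passed (15.9%), with 907 higher (7.36%) and 1054 lower (8.55%) in Smad3 KO Dox. A difference of at least 2 was reached by 109 genes upward and 124 downward, and the median over all genes was 0.04. Among nuclear protein-coding genes 1607 of 11263 (14.3%) passed. The split between directions moved with the scaling. When every library was rescaled to the same sum of 1000000 (TPM), 721 genes were higher and 1572 lower, and when mitochondrial and globin transcripts were left out before rescaling, 795 were higher and 1473 lower.

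**Figure D1:**
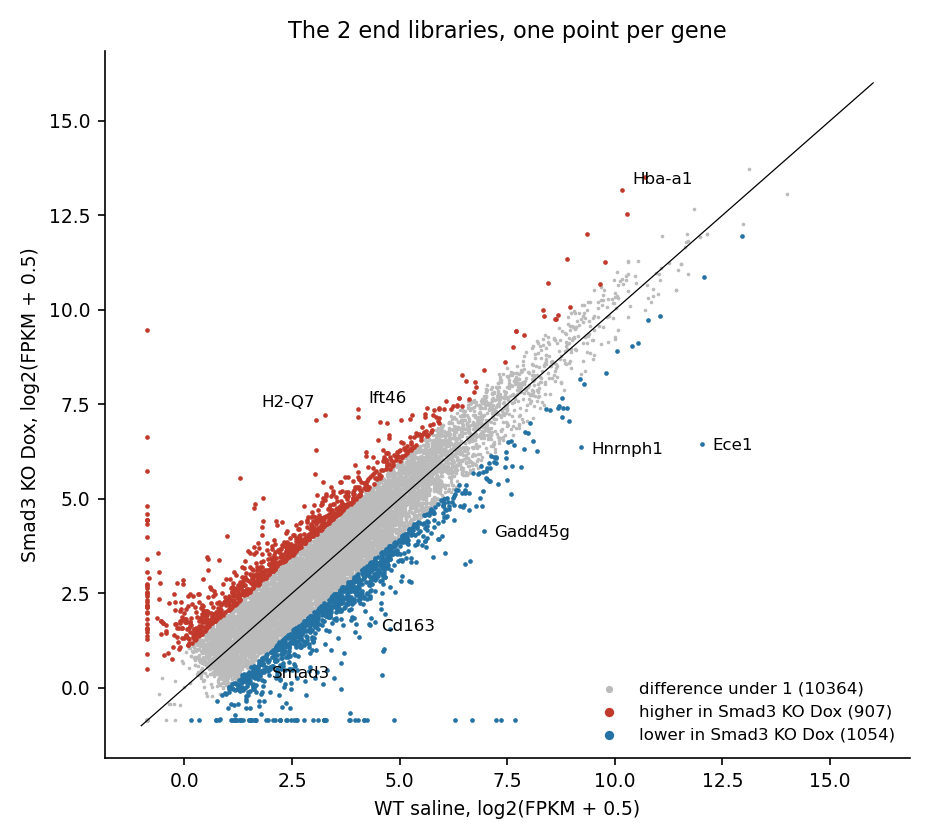
Each point is 1 of the 12325 genes, with its log2(FPKM + 0.5) level in WT saline on the x axis and in Smad3 KO Dox on the y axis. Red marks the 907 genes at least 1 higher and blue the 1054 at least 1 lower in Smad3 KO Dox; points along the left and lower edges are genes listed without a measured value (0.05 FPKM) in 1 library, and Ece1 lies furthest below the diagonal among abundant genes.

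The libraries differed in ways that bear on these counts. The deposited FPKM summed to between 509818 and 666863 per library, and the spacing of low values placed the depth of Smad3 KO Dox at 0.779 of that of WT saline. Mitochondrial transcripts took 10.5% of the summed FPKM in WT saline and 8.95% in Smad3 KO Dox, but 16.8% and 20.1% in the WT Dox and Smad3 KO saline libraries. Globin transcripts took 0.864% in WT saline and 5.04% in Smad3 KO Dox. In 100 of the genes that passed, 1 end was listed at 0.05 FPKM, the lowest value, which stands in place of 0.

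The difference followed transcript length. In the shortest of 8 length bins (148 to 1256 bases) the median difference was 0.40, and 18.8% of genes were higher and 10.3% lower. In the longest bin (6158 to 123179 bases) the median was -0.64, with 1.69% higher and 24.9% lower. The same bins had medians of 0.01 and -0.24 in WT Dox and of 0.15 and -0.27 in Smad3 KO saline, each against WT saline. After a running median over length was subtracted, 1481 of 12276 genes with a known length passed (668 higher, 813 lower), and 1044 genes passed both ways, which is 53.2% of the first set and 70.5% of the second. The part of length in each result was not tested beyond this subtraction, and length-removed values are given below for the main lists and for described genes whose call it changed.

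**Figure D2:**
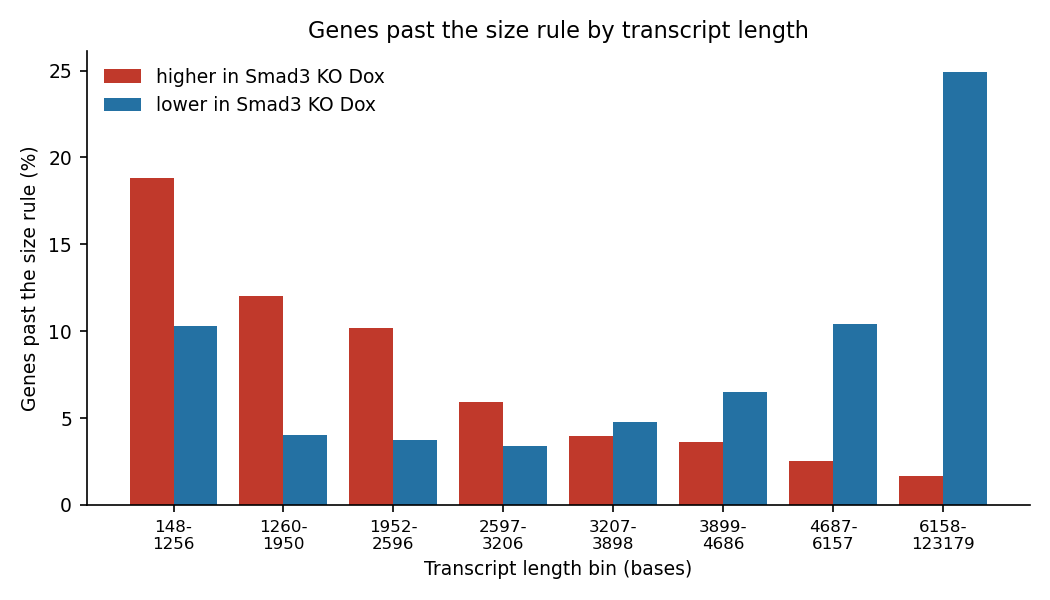
Bars give the percent of genes in each transcript-length bin (x axis, bases) that were at least 1 higher (red) or at least 1 lower (blue) in Smad3 KO Dox than in WT saline on the log2(FPKM + 0.5) scale. The share higher fell by bin from 18.8% to 1.69%, and the share lower was 24.9% in the longest bin.

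Smad3 itself (ENSMUSG00000032402, chr9:63646767-63757994 of GRCm38, minus strand) was measured at 2.95 FPKM (WT saline), 2.09 (WT Dox), 1.02 (KO saline, short for Smad3 KO saline) and 0.848 (KO Dox, short for Smad3 KO Dox). Both libraries titled wild type lay above both titled knockout, and transcripts were still counted in the knockout libraries. The difference between the ends was -1.36. Its partners in the nucleus did not pass. Smad4 was 27.6 FPKM in WT saline and 29.3 in Smad3 KO Dox, and Smad2 was 14.6 and 18.7, a difference of 0.34 that was 1.01 with the length trend (above) removed. Of the 138 measured genes within 10 Mb of Smad3, 18 passed (6 higher, 12 lower), or 13%, against 15.9% of all genes.

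Positions were computed for each of the 1961 genes as the share of the way from WT saline (0) to Smad3 KO Dox (1) on the log2 scale. In 1473 genes (75.1%) both intermediate libraries lay between the ends. The median position was 0.292 for WT Dox and 0.430 for Smad3 KO saline, and Smad3 KO saline was the further along of the pair in 1312 genes (66.9%). Both intermediates were nearer WT saline in 1047 genes (53.4%). Only Smad3 KO saline was nearer Smad3 KO Dox in 451 (23%), only WT Dox in 153 (7.8%), and both in 310 (15.8%). The order of the pair was not particular to the genes that passed. In the 4110 genes that differed by 0.5 to 1, the median position was 0.287 for WT Dox and 0.451 for Smad3 KO saline. Smad3 KO saline was the further along in 66.4% of them. Both intermediates were nearer WT saline in 46.5% and both nearer Smad3 KO Dox in 20.8%. Both ends set the scale and chose the genes, so these shares describe the 4 libraries and are no test of genotype or drug.

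The direction of the change went with the position. Among the 907 higher genes, both intermediates were nearer WT saline in 586 (64.6%) and both nearer Smad3 KO Dox in 51 (5.62%). Among the 1054 lower genes these were 461 (43.7%) and 259 (24.6%). Of the 310 genes with both intermediates nearer Smad3 KO Dox, 137 had a WT saline value at least 1 away from each of the other 3 libraries. Over all 12325 genes, 406 had Smad3 KO Dox at least 1 away from the other 3 libraries on one side, 150 had WT saline so placed, 74 Smad3 KO saline and 61 WT Dox. With the length trend removed, the 4 shares were 52.5%, 21.7%, 8.17% and 17.6%. After rescaling to TPM they were 36%, 29%, 5.58% and 29.5%, so the majority nearer WT saline depended on the scaling.

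**Figure D3:**
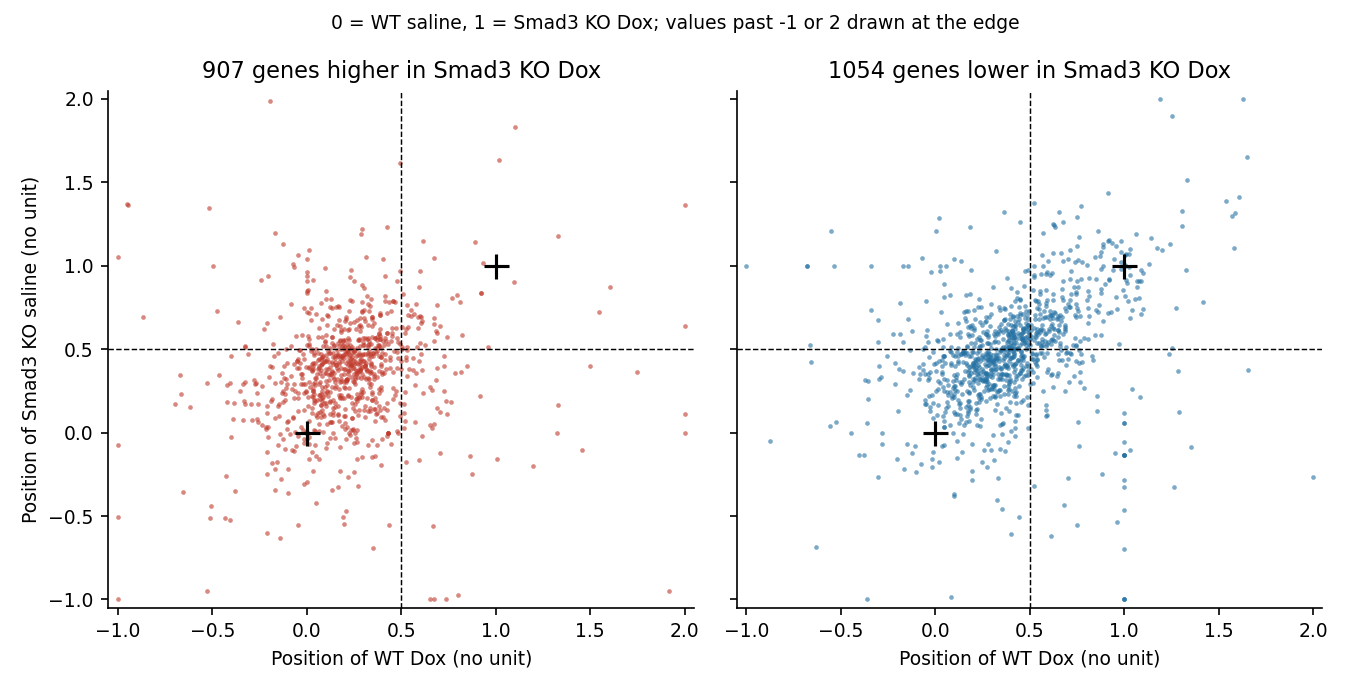
Each point is a gene that passed, with the position of WT Dox on the x axis and of Smad3 KO saline on the y axis (0 is WT saline, 1 is Smad3 KO Dox, no unit); crosses mark the ends and dashed lines the midpoint. The 907 higher genes (left) gather in the lower left, and more of the 1054 lower genes (right) reach the upper right, 24.6% against 5.62%.

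Among the genes that left the other 3 libraries only in Smad3 KO Dox was Ece1 (chr4:137862237-137965229 of GRCm38), which encodes the protease that makes active endothelin. It was listed at 4144 FPKM (WT saline), 3614 (WT Dox), 5589 (KO saline) and 86.6 (KO Dox). The first 3 values lay close together and the last far below, a difference of -5.57. A predicted gene overlaps Ece1 on the other strand, and whether counting used strand is not given in the sources used here.

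Further genes of this kind differed less. Ift46, a subunit of the particle that carries cargo along cilia, was 15.8, 14.2, 25.9 and 164 FPKM in the order WT saline, WT Dox, Smad3 KO saline, Smad3 KO Dox, a difference of 3.33. Ccl24, an eosinophil-attracting chemokine, was 11.9, 7.67, 6.54 and 1.09 FPKM in that order, a difference of -2.96. Pdgfa, a growth factor for mesenchymal cells, was 11.8, 18.8, 17.9 and 43.1 FPKM, a difference of 1.83. In each of these 3 genes both intermediates lay nearer WT saline.

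In other genes only Smad3 KO saline lay nearer Smad3 KO Dox. Hnrnph1 (chr11:50376990-50386528), an RNA-binding protein that steers splicing, was 596 FPKM in WT saline and 620 in WT Dox, but 88.0 and 81.5 in the knockout pair given saline and Dox. The difference was -2.86, and Smad3 KO saline stood at position 0.961. Nudt16, a nucleotide hydrolase, was graded instead, at 3.07, 6.01, 11.7 and 32.2 FPKM in the same order. Dbp, a clock-controlled transcription factor, was 25.6, 40.8, 82.2 and 127 FPKM, while Arntl, which encodes the clock activator BMAL1, went the other way in steps, at 2.53, 1.72, 1.02 and 0.475. The 17 measured clock genes had 2 higher (Dbp and Bhlhe41), 2 lower (Arntl and Per2) and a median of -0.33, and Per2 was at -0.73 with length removed. Levels of clock genes depend on the hour at which cells are taken, which is not given in the sources used here.

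In a smaller set only WT Dox lay nearer Smad3 KO Dox. Zfp950, a zinc finger gene, was 2.58 FPKM (WT saline), 40.9 (WT Dox), 1.49 (KO saline) and 26.4 (KO Dox). Both saline libraries were low and both Dox libraries high. Grk5 overlaps Zfp950 on the other strand, and the part of Grk5 reads in these values was not tested. Cldn12, a claudin of cell junctions, was 29.1, 7.89, 13.3 and 5.32 FPKM in that order, a difference of -2.35. Dock6, an activator of small GTPases, was 45.4, 22.9, 25.2 and 13.2 FPKM, and its positions of 0.557 and 0.477 lay on either side of the midpoint by little.

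In the remaining class both intermediates had moved most of the way. Gadd45g, a stress-induced growth arrest gene, was 124 FPKM (WT saline), 39.3 (WT Dox), 31.7 (KO saline) and 17.2 (KO Dox), a difference of -2.81. E2f3, a transcription factor for cell cycle entry, was 65.8, 9.56, 18.2 and 11.4 FPKM in that order. In E2f3 the WT saline library was far above the other 3, and WT Dox lay past the far end at position 1.10. Efcab7 was 26.8, 7.65, 4.25 and 2.46 FPKM and Fam71a 24.9, 6.68, 5.03 and 3.40. The mitochondrial ribosomal RNA mt-Rnr2 was 657, 1964, 2371 and 4105 FPKM, and mt-Rnr1 was 477, 1274, 1759 and 2604 FPKM.

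**Figure D4:**
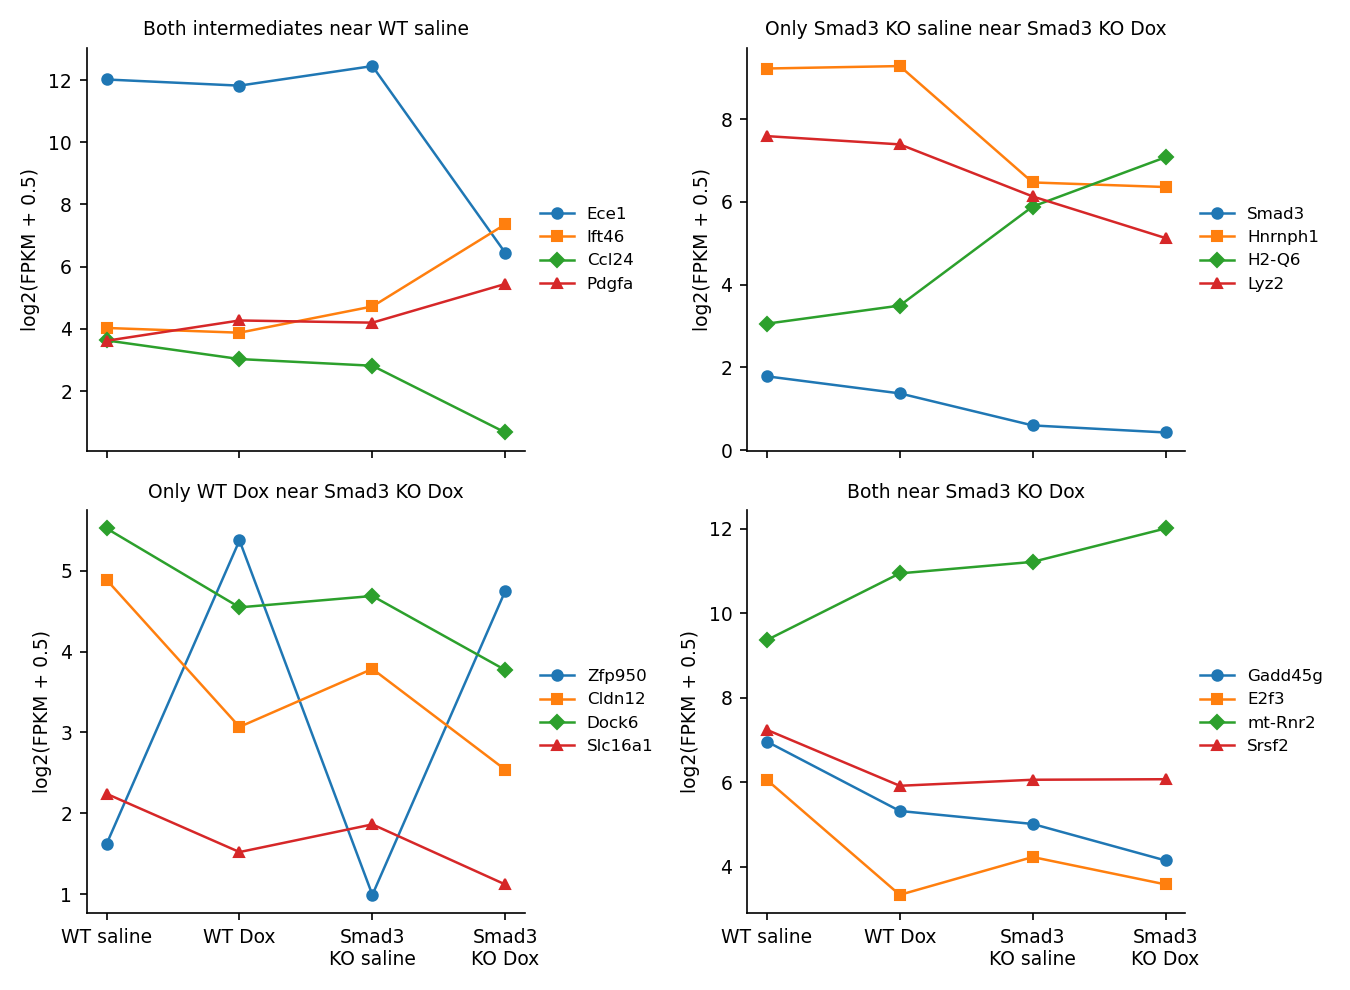
Lines join the log2(FPKM + 0.5) values (y axis) of 4 genes per panel across the 4 libraries (x axis), 1 library per group; the panels are the 4 classes of position. Ece1 drops only in Smad3 KO Dox, Hnrnph1 is low in both libraries titled knockout, Zfp950 is high in both Dox libraries, and E2f3 is high in WT saline only.

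Some of the most extreme values were small RNAs listed at 0.05 FPKM at one end, for which no difference is given. Snora81, a small nucleolar RNA, was 102 FPKM in WT saline and at the lowest value in the other 3 libraries. Snora73b was 17.5 FPKM in WT saline and 55.2 in Smad3 KO saline, and at the lowest value in both Dox libraries. The copies Rnu3b1, Rnu3b2, Rnu3b3 and Rnu3b4 were identical in every library, at 21.3 FPKM in Smad3 KO Dox and 0.05 in WT saline, and count as 1 measurement. All 12 snoRNAs and all 4 snRNAs above the filter were at the lowest value in at least 1 library.

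Some TGF-β pathway genes were lower. Of 21 ligands, receptors and Smads, 4 were lower and none higher (19%, near the 15.9% of all genes). The 4 include Smad3, the gene that was knocked out, whose lower value follows from the genotype. In this list 14 lay below 0 and 7 above, with a median of -0.49 against 0.04 for all genes. Ltbp4, which stores latent TGF-β in the matrix, was 491 FPKM (WT saline), 371 (WT Dox), 389 (KO saline) and 133 (KO Dox), so that the last library alone stood apart. The difference was -1.88. Acvr1b, a type I activin receptor, was 5.15, 3.21, 3.09 and 2.06 FPKM in that order, and the co-receptor Tgfbr3 was 15.1, 11.8, 13.3 and 7.01. Tgfb1, the ligand, was 98.4 FPKM in WT saline and 94.5 in Smad3 KO Dox. With length removed, the difference of Tgfbr3 was -0.63, the median of the list was -0.26, and 3 members (Smad3 among them) were lower and 1 higher.

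Among 20 targets and feedback regulators of TGF-β, 5 were lower and 1 higher, with a median of -0.44. Smad7, the inhibitory Smad that TGF-β induces, was 38.0 FPKM (WT saline), 25.9 (WT Dox), 21.2 (KO saline) and 9.63 (KO Dox), falling in that order to a difference of -1.92. The matrix gene Fn1 was 90.9, 71.5, 76.9 and 37.4 FPKM, and the basement membrane collagen gene Col4a1 was 626, 466, 425 and 262. The secreted glycoprotein gene Thbs1 was 33.5, 11.9, 18.4 and 14.9 FPKM. The gene that was higher was Cdkn2b, a cell cycle inhibitor, at 0.694 FPKM in WT saline and 2.06 in Smad3 KO Dox, and its difference of 1.10 was 0.67 with length removed. Ccn2, a classic target, was 52.4 FPKM in WT saline and 42.3 in Smad3 KO Dox. With length removed, Fn1, Col4a1 and Thbs1 were at -0.58, -0.77 and -0.70 and no longer passed, while Smad7 was at -1.88.

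Some matrix genes were lower. Of 32 extracellular matrix genes 9 were lower and none higher, 22 lay below 0 and 10 above, and the median was -0.48, but with length removed 2 were lower, 1 higher and the median was -0.17. Hspg2, the basement membrane proteoglycan perlecan, was 291 FPKM (WT saline), 193 (WT Dox), 198 (KO saline) and 75.9 (KO Dox), and it passed either way. Of 16 Notch pathway genes 3 were lower (18.8%, near the 15.9% of all genes), with 9 below 0 and 7 above. The receptor Notch1 was 117, 88.9, 77.9 and 32.1 FPKM and the ligand Jag1 was 19.5, 16, 12.1 and 7.17. Notch1 and Jag1 passed with length removed, at -1.06 and -1.0, and Notch2 did not, at -0.51.

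Among growth factor and angiogenesis genes 2 of 26 were higher and 1 lower, a share of 11.5% against 15.9% of all genes. With length removed 3 were higher and 2 lower. Beside Pdgfa, the higher gene was Nrp1, a co-receptor for VEGF and semaphorins, at 238, 289, 414 and 649 FPKM in the order WT saline, WT Dox, Smad3 KO saline, Smad3 KO Dox. The lower gene was the chemokine receptor Cxcr4, at 27.0, 28.0, 15.3 and 13.1 FPKM, low in both libraries titled knockout.

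Endothelial markers were abundant at both ends. The 20 pan-endothelial genes summed to 4101 FPKM in WT saline and 3461 in Smad3 KO Dox, with 2 lower, none higher and a median of -0.22. Pecam1, which encodes the CD31 used to select the cells, was 499, 488, 511 and 401 FPKM in the 4 libraries. Cdh5, the adhesion molecule of endothelial junctions, was 475, 372, 341 and 168 FPKM, a difference of -1.50 that held at -1.45 with length removed. None of 14 capillary genes passed, and 1 (Timp4, at 1.19) did with length removed. Of 11 lymphatic genes 6 were lower (median -1.04), among them Lyve1, a hyaluronan receptor, at 63.6, 45.5, 47.1 and 20.8 FPKM, and the chemokine Ccl21a at 195, 121, 135 and 57.8. Of 12 endocardial genes 6 were lower (median -0.92), led by Vwf, the clotting factor carrier, at 137, 136, 103 and 43.5 FPKM, and the natriuretic peptide receptor Npr3 at 14.8, 11.5, 9.92 and 4.63. Vwf was also on the list of venous genes, of which all 11 lay below 0 and 3 were lower (median -0.65). With length removed 5 lymphatic, 3 endocardial and 4 venous genes passed, and Vwf was at -0.87. In bulk samples fewer cells of a type and less RNA per cell cannot be told apart.

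Macrophage genes lay below WT saline throughout. All 25 measured members lay below 0, 15 of them passed, and the median was -1.03, or -1.26 with length removed and 18 passing. Cd163, a scavenger receptor of resident macrophages, was 19.5 FPKM (WT saline), 12.9 (WT Dox), 9.16 (KO saline) and 2.69 (KO Dox). Lyz2, lysozyme, was 192, 167, 69.6 and 34.4 FPKM, a difference of -2.46, and Cd68 was 20.3, 22.1, 13.5 and 7.16. For Lyz2 and Cd68 the WT Dox value lay beside WT saline and the order of the knockout libraries was the same. The summed list was 942 FPKM (WT saline), 979 (WT Dox), 606 (KO saline) and 403 (KO Dox). Ptprc, the common leukocyte marker, was 7.06 and 3.32 FPKM at the ends and did not pass, at -0.98.

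Part of the chemokine and complement genes were lower beside these markers. Of 28 cytokine and chemokine genes 9 were lower and 1 higher. Ccl8 was 4.99, 4.46, 0.359 and 0.187 FPKM in the order of the libraries, low in both libraries titled knockout, and Cxcl2, a neutrophil attractant, was 88.8, 50.6, 28.1 and 27.0. The monocyte chemokines Ccl9 and Ccl6, both named by the study from these libraries and so no independent evidence, were 27.4 and 40.2 FPKM in WT saline and 8.19 and 13.2 in Smad3 KO Dox. Their WT Dox values of 41.7 and 50.7 lay beyond the WT saline end. The higher gene was Il34, a ligand of the macrophage receptor CSF1R, at 18.2 and 41.4 FPKM at the ends, and its difference of 1.16 was 0.75 with length removed. The cytokine list then had 13 lower and none higher. Of 16 complement genes 5 were lower, led by the receptor C5ar1 at 12.6, 11.8, 6.15 and 1.40 FPKM. The part of the lower macrophage markers in these chemokine and complement values was not tested.

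Other genes the study named from these libraries changed less or were scarce. Haus1, a subunit of the augmin complex of the spindle, was 2.52, 2.15, 3.53 and 7.28 FPKM, a difference of 1.37. Atp5a1 overlaps Haus1 on the other strand, and the part of Atp5a1 reads in these values was not tested. Ccl5 and Gas7 did not pass, at -0.77 and -0.90, though Ccl5 passed as lower with length removed. Hgf was 1.31 FPKM in WT saline and 1.68 in Smad3 KO Dox, and E2f2 and Chaf1a fell under the mean of 1 FPKM.

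Several antigen presentation genes were higher. Of 24 class I histocompatibility and peptide loading genes 9 were higher and none lower, with a median of 0.89, and 9 also passed with length removed (median 0.57). H2-Q6 and H2-Q7 (chr17:35424850-35430055 and chr17:35439155-35443773), which encode class I heavy chains, were 7.83 and 9.12 FPKM in WT saline, 10.8 and 16.3 in WT Dox, 58.7 and 59.2 in Smad3 KO saline and 135 and 148 in Smad3 KO Dox. H2-Q5 was 7.83, 5.76, 104 and 77.5 FPKM in the same order. For all 3 genes both libraries titled wild type were low and both titled knockout high. The H2-Q genes are close copies that reads can fail to tell apart and that vary between mouse strains, and strain and genotype cannot be told apart here. The immunoproteasome subunits Psmb9 and Psmb8, which cut peptides for class I molecules, were 12 and 49.2 FPKM in WT saline and 43.4 and 170 in Smad3 KO Dox, with WT Dox and Smad3 KO saline in between.

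Of 32 interferon-induced genes, 5 were higher and 1 lower, a share of 18.8% that is near the 15.9% of all genes, with a median of 0.28. With length removed 4 were higher and 3 lower, and the median was 0.13. Ifit1, which binds foreign RNA, was 15.2 FPKM (WT saline), 26.7 (WT Dox), 18.6 (KO saline) and 59.5 (KO Dox), a difference of 1.93. The guanylate-binding protein gene Gbp3 was 14.4, 18.2, 18.3 and 29.9 FPKM in that order, a difference of 1.03 that was 0.83 with length removed. In both genes Smad3 KO Dox was the highest library. The lower gene was Mx2, at 10.9, 4.58, 4.34 and 4.63 FPKM, where WT saline stood apart from the other 3.

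Promoters were read from RefSeq (GRCm38.p6), 250 bases before to 50 after each start, to show the letters beside these groups. The core of the interferon-stimulated element, GAAANNGAA on either strand, occurred in 9.76% of the 27025 genes with a promoter in that table. It occurred in 19 of the 43 members of the class I and interferon lists with an entry there. Of the 11 members that passed and had an entry, 4 held it. The heat shock element, GAA units in alternating orientation searched on either strand, occurred in 0.662% of all promoters. It occurred in 5 of 20 heat shock genes with an entry, and Hsph1 alone held it among the 6 that passed. The short Smad element CAGACA occurred in 23.6% of all promoters, in 2 of 9 TGF-β targets with an entry (Cdkn1a and Tgif1) and in none of the 2 TGF-β targets that passed and had an entry. The palindromic Smad box GTCTAGAC occurred in 0.248% of promoters and in neither target. The NF-κB form GGAANTTCC occurred in 1.07% of promoters and in 3 of 18 NF-κB and adhesion genes with an entry (Icam1, Nfkbia and Tnfaip3). It did not occur in the 1 passing member of that list with an entry. Such matches are descriptions of letters. The promoters of Ifit1 (chr19:34640639-34640938, plus strand), Gbp3 (chr3:142559794-142560093, plus strand) and Hsph1 (chr5:149636287-149636586, minus strand) are shown as examples with a match, in capitals.
Ifit1: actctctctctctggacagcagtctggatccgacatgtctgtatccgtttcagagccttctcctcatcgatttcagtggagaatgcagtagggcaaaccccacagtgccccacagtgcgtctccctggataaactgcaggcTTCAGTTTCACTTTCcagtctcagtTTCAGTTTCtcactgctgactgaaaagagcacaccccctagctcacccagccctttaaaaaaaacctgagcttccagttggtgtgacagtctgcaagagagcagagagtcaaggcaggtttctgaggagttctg
Gbp3: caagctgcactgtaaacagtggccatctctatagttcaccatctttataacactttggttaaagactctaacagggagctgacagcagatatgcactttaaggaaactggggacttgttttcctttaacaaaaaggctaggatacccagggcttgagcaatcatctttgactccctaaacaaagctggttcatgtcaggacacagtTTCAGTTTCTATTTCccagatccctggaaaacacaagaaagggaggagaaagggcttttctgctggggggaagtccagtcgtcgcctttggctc
Hsph1: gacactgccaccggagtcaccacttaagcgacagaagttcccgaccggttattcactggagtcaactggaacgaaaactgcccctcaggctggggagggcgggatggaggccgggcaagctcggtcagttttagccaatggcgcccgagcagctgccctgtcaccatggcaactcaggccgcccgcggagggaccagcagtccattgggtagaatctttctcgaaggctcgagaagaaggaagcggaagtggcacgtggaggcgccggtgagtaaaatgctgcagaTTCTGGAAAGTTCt

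Some heat shock genes were lower, 6 of 26 (23.1%, against 15.9% of all genes), with none higher and a median of -0.58. With length removed 7 were lower, none higher and the median was -0.53. Hsph1, a chaperone of the HSP110 family, was 32.8, 47.8, 16.6 and 7.26 FPKM in the order WT saline, WT Dox, Smad3 KO saline, Smad3 KO Dox. The endoplasmic reticulum chaperone Hspa5 was 445, 340, 291 and 169 FPKM, and the small heat shock gene Hspb1 was 1060, 1083, 797 and 481. For Hsph1 and Hspb1 the WT Dox value lay beyond the WT saline end. Immediate early genes, which tissue digestion is known to induce, had 5 of 25 lower and none higher (20%, near the 15.9% of all genes). With length removed 6 of this list were lower and none higher. Fosb was 1491, 948, 1030 and 557 FPKM. Of 23 antioxidant genes 5 were lower and none higher (21.7%, against 15.9% of all genes), but 14 lay above 0 and 9 below. Their median was 0.16, or -0.09 with length removed. Both metallothioneins were among the lower genes, Mt1 at 275, 129, 137 and 92.1 FPKM and Mt2 at 131, 73.1, 62.0 and 45.8.

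Growth arrest and proliferation genes were mostly under the size rule. Of 25 targets of p53 and arrest genes 3 were lower and 1 higher (16%, near the 15.9% of all genes). Trp53, which encodes p53, was 26.4, 13.9, 16.9 and 12.3 FPKM. With length removed 6 of the p53 list were lower and none higher. None of 25 DNA repair genes and none of 12 genes for doxorubicin transport and reduction passed, and with length removed 1 repair gene was higher. Of 9 measured mitosis genes 2 were higher and 2 lower (44.4%, against 15.9% of all genes), and with length removed 1 was higher and 1 lower. The higher genes were Haus1 (above) and Aurkb, which was 0.839, 0.730, 0.864 and 2.54 FPKM. With length removed Haus1 passed at 1.92 and Aurkb did not, at 0.86. Mki67, a proliferation marker, was 2.35, 1.07, 0.640 and 0.801 FPKM, and Top2a, the topoisomerase of dividing cells, was 3.24, 1.25, 1.46 and 1.34. In both the WT saline library was above the other 3, and with length removed neither passed. Aurkb came above the mean of 1 FPKM only through Smad3 KO Dox, and Mki67 only through WT saline. The share of mitosis genes that passed was therefore partly set by the filter.

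The median splicing factor gene lay below WT saline in all 3 other libraries. Of 30 measured 6 were lower and none higher (20%, near the 15.9% of all genes). The median was -0.50 in Smad3 KO Dox and -0.54 in both WT Dox and Smad3 KO saline. With length removed 6 were lower in Smad3 KO Dox, none higher and the median was -0.55. Srsf5 was 254 FPKM (WT saline), 81.1 (WT Dox), 79.5 (KO saline) and 106 (KO Dox), and Srsf2 was 150, 59.7, 66.0 and 66.5. For Srsf5 and Srsf2 both intermediates lay at or past the far end.

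Genes of the proteasome, the respiratory chain and the mitochondrial ribosome, most of them short, lay above WT saline. All 28 proteasome genes lay above 0 and 6 passed (median 0.73), 3 of 37 nuclear oxidative phosphorylation genes passed (median 0.66) and 5 of 29 mitochondrial ribosomal protein genes did (median 0.88). Psmd1, a subunit of the proteasome cap, was 33.3, 43.9, 52.8 and 88.7 FPKM, and Ndufa2, of respiratory complex I, was 60.3, 81.1, 95.3 and 169. With length removed the medians were 0.36, 0.27 and 0.52, and 2, 1 and 5 genes passed. The 13 proteins encoded in mitochondrial DNA showed another order. None passed and their median was -0.10 in Smad3 KO Dox, but 0.96 in WT Dox and 1.27 in Smad3 KO saline, so both intermediates lay outside the ends. With length removed 4 of the 13 were lower in Smad3 KO Dox and the median was -0.44. mt-Co1, of respiratory complex IV, was 8075, 14422, 16316 and 4950 FPKM, a difference of -0.71, or -1.11 with length removed.

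Markers of red blood cells and heart muscle cells were higher in Smad3 KO Dox. Of 12 red blood cell genes 10 were higher and none lower (median 2.26). Hba-a1, an α-globin gene, was 1157, 1011, 2693 and 9156 FPKM, and Alas2, which starts heme synthesis in red cells, was 15.9, 20.1, 41.9 and 142. The summed list was 4522, 4517, 10449 and 28861 FPKM in the order of the libraries. Of 24 cardiomyocyte genes 9 were higher and 2 lower (median 0.81), and their sum was 1555, 1922, 2368 and 2980 FPKM. Ckm, muscle creatine kinase, was 37.5, 48.1, 68.7 and 137 FPKM, and Tnnc1, a troponin, was 87.1, 129, 145 and 309, whereas Myh6, the main heavy chain of the adult mouse heart, was 68.5, 112, 153 and 87.6 and did not pass. Sln, a regulator of the calcium pump found mainly in atria, was 9.06, 4.24 and 15.3 FPKM and was listed at the lowest value in Smad3 KO Dox. Of 15 fibroblast genes 2 were lower (13.3%), and of 17 pericyte and smooth muscle genes 3 were higher (17.6%). Both shares are near the 15.9% of all genes. Of 4 mast cell genes 3 were lower (median -2.06). These 3, Mcpt4, Tpsb2 and Cpa3, were scarce, at 4.15, 2.41 and 2.19 FPKM in WT saline. Mcpt4 and Tpsb2 were at the lowest value in Smad3 KO Dox, and Cpa3 came above the mean of 1 FPKM only through WT saline. With length removed 7 cardiomyocyte genes were higher and 3 lower, 1 fibroblast gene was lower and 1 pericyte and smooth muscle gene higher. Leaving out all 13 lists of markers of other cell types gave 1913 passing genes of 12204. The part of other cells in the remaining differences was not tested.

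**Figure D5:**
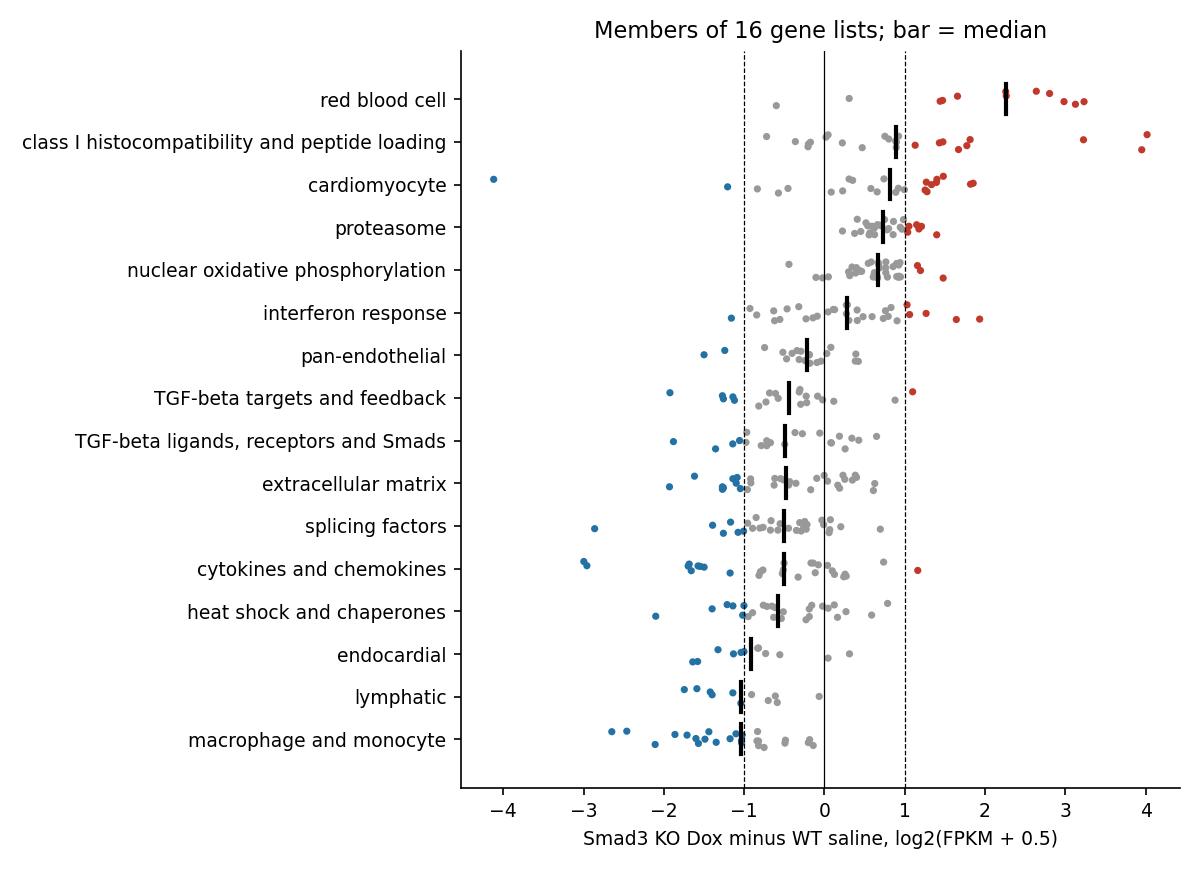
Each point is a measured member of the list named on the y axis, at its difference between Smad3 KO Dox and WT saline (x axis, log2(FPKM + 0.5)); black bars are list medians, and red and blue points passed the size of 1. Among the lists plotted, which leave out the mast cell list and others, medians run from 2.26 for red blood cell genes to -1.03 for macrophage genes and -1.04 for lymphatic genes.

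Genes often used as references did not hold one level. Gapdh was 484 FPKM in WT saline and 787 in Smad3 KO Dox (0.70). Polr2a, the largest subunit of RNA polymerase II, was 36.1, 25.3, 30.7 and 14.6 FPKM in the order of the libraries, and its difference of -1.28 was -0.74 with length removed. Actb was 3160 and 3257 FPKM at the ends (0.04) and 13709 in Smad3 KO saline.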

How the data were processed

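RNA sequencing libraries of CD31-selected mouse cardiac endothelial cells, 1 for each of 4 groups, were compared from a table of FPKM that the authors deposited. STAR, CASAVA and GRCm38.p4 appear in the submitters' processing notes, whereas the study's methods describe an older aligner suite and a human build, so which tools made these values is uncertain; the annotation release is not given in the sources used here. The table gives 0.05 in place of 0. Lines that share a gene ID (121 lines of 51 IDs) were summed, and 1 value under 0.05 was set to 0.05. A spreadsheet date stood in place of the symbol in 27 lines, which were followed by ID. Read counts are not used here, so the depth is known only in relative terms, from the spacing of low FPKM values, and no interval is given.

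Differences were taken on log2(FPKM + 0.5) over genes averaging 1 FPKM or more in the 4 libraries, with a size rule of 1 and no test. Gene lengths, coordinates and overlaps came from GENCODE M21 (GRCm38), with the longest transcript as the length, and the length trend was a running median over 501 genes. Gene members and lists were chosen with earlier results of these data known. Named genes were Smad3, 8 genes the study named, up to 4 passing members per list, the 12 highest and 12 lowest genes and 6 per position class (mean of at least 5 FPKM), 7 cell markers and 9 reference genes, leaving out predicted genes, pseudogenes, receptor segments and Y-linked genes. Among genes outside that rule, mt-Rnr1, mt-Co1, H2-Q5, Smad2, Smad4, Tgfb1, Ccn2, Cdkn2b, Il34, Gbp3, Mx2, Timp4 and the genes named only for a motif were chosen after their values were seen, as was the interferon motif. Alternatives were other pseudocounts, filters and scalings, removal of the length trend and the groups as the genotype and treatment tags give them. Some genes under the rule are not reported here. Scripts were tested on simulated data and used Python 3.11.15, pandas 2.3.3 and numpy 2.4.6.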

Additional observations from a re-analysis of the deposited data

How the results depend on the processing

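Against the 1961 passing genes (907 higher, 1054 lower), counts stayed within 1.5 times at the other pseudocounts (2359 at 0.1, 1575 at 1), under the 3 scalings and with the length trend removed (1481). A mean of at least 5 FPKM gave 1163 (521 higher, 642 lower) and a difference of 2 gave 233 (109 and 124), both fewer by construction, and no filter gave 1545 higher genes. With the groups as the tags give them, 322 passed (150 and 172) and Smad3 stood at -0.29, under the size rule; this averages each intermediate with an end. The share with only WT Dox nearer Smad3 KO Dox was 5.07% at a mean of 5 FPKM. After rescaling to TPM the share with both nearer Smad3 KO Dox was 29.5%. The share with both nearer WT saline fell from 53.4% to 36%, no longer a majority (the cause was not tested). When nearer meant within 0.25 of an end, the 4 shares were 16.6%, 3.26%, 2.09% and 5.46%, and 1424 genes (72.6%) joined no class. Of 170 named genes other than Smad3, 35 calls were lost with the length trend removed, 11 with a pseudocount of 1, 6 with TPM, 4 with upper-quartile and 1 with median-ratio scaling, and no passing gene reversed. The length trend was removed from the positions as an alternative chosen after seeing the data. No paired analysis was possible because each group had 1 library, and for that reason no library could be left out.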

Other observations

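Genes of iron, glucose and inflammatory signalling gave further values. Among 19 iron and heme genes 3 were higher and 2 lower (26.3%, against 15.9% of all genes). Trf, the iron carrier transferrin, was 54.1, 61.7, 30.6 and 10.5 FPKM in the order WT saline, WT Dox, Smad3 KO saline, Smad3 KO Dox, and Hmox1, which breaks down heme, was 67.2, 62.8, 51.1 and 25.5. Fech, the last enzyme of heme synthesis, was 10.1, 10.1, 13.6 and 33.0 FPKM, the opposite direction to Trf. Of 21 glycolysis genes 3 were higher and 1 lower (19%, near that share), and Eno3, the muscle enolase, was 26.6, 34.4, 43.5 and 96.5 FPKM. Of 22 NF-κB and leukocyte adhesion genes 2 were lower and none higher (9.09%, under the 15.9% of all genes). In this list 13 lay below 0 and 9 above, with a median of -0.13. Sele, which encodes E-selectin, was 10.6, 4.26, 3.76 and 3.06 FPKM, and Nfkbiz, a nuclear regulator of NF-κB, was 93.3, 40.5, 38.5 and 40.7, so that in both the WT saline library stood above the other 3. Ptgs2, the inducible cyclooxygenase, was 17.0, 10.1, 9.38 and 5.07 FPKM. Mmp9, a gelatinase, was 3.49, 2.55, 1.08 and 0.431 FPKM. With the length trend removed, 2 iron and heme genes were higher and 3 lower, 1 glycolysis gene was higher and 1 lower, and 4 NF-κB and adhesion genes were lower and none higher, and each of these 8 named genes still passed.

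Of 46 measured genes on the Y chromosome, 29 were higher and 2 lower in Smad3 KO Dox (67.4% passing, against 15.9% of all genes). Many Y genes are multi-copy, and reads can fail to tell the copies apart.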
